A study of Homo sapiens with 8 samples.

Results

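The Krüppel-like factor (KLF) genes KLF2, KLF3, KLF4, KLF5, KLF6, KLF7, KLF9, KLF10, KLF12 and KLF13 were followed across human embryonic stem cells and the embryoid bodies (EB) made from them. All 10 genes were on the array, read by 38 probe sets that carry a single gene symbol, out of 19775 genes and 41091 such probe sets. Each gene was represented by its brightest probe set by mean log2 intensity, and its other probe sets were kept as a check. A gene was tested when that probe set exceeded the median intensity of its array on at least 2 of the 8 arrays, which left 9 members of the 14056 tested genes. KLF9 was below the median on all 8 and was not tested.

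The study compared self-renewing and differentiating cells of the established lines H1 and H9 on Affymetrix U133 Plus 2.0 arrays, with 1 sample per array and 2 arrays in each of 4 groups. Undifferentiated H1 and undifferentiated H9 were grown in mTeSR1, a defined stem cell medium. H1 EB and H9 EB were dissociated with Accutase and held for 3 days on low-attachment plates in hESGM medium without bFGF and with 10 µM Y-27632, an inhibitor of the kinase ROCK, which the labels name for EB alone. State, medium, attachment and compound therefore cannot be told apart. The labels call the arrays of a group biological replicates and do not say which cultures they came from, so p-values reflect no more than the spread among these samples.

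The deposited values were linear intensities. Median intensities of the arrays ran from 68.7 to 86.05, and a gene is called dim in a group when its probe set lay below the median on both arrays; detection calls were not used here. Across tested genes, arrays of a group correlated at 0.991 to 0.992. When identity was checked, 2 of the 8 libraries went against the labels of their group. CRYZ, a quinone oxidoreductase gene named here with its values already known, read 3729 and 3949 in undifferentiated H1, 4470 and 4198 in H1 EB, 50.1 and 30.1 in undifferentiated H9, and 1406 and 1384 on the arrays labelled H9 EB. That last group is referred to throughout as the arrays labelled H9 EB. The H1 comparison, whose log2 differences use none of these arrays, is given first for every member. Its standard errors and p-values still draw on the spread over all 8 arrays, except where arrays are said to be left out. Of 9 markers of pluripotent cells on the array, all were above the median on every array, with a summed signal of 123400 to 127600 in undifferentiated H1, 90490 to 91350 in H1 EB, 116800 to 123100 in undifferentiated H9 and 103400 to 107400 on the arrays labelled H9 EB. The summed signal of 10 markers of differentiating cells went from 1948 to 2003 in undifferentiated H1 up to 41770 to 42410 in H1 EB, and from 1228 to 1394 up to 29470 to 29730 on the arrays labelled H9.

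KLF proteins bind GC-rich and CACCC-type sites in DNA through zinc fingers at their carboxyl end, and differ in the parts that recruit cofactors. KLF2, KLF4, KLF5, KLF6 and KLF7 belong to a subfamily of mostly activators that can recruit acetyltransferases, KLF3 and KLF12 to one that binds the corepressor CtBP, and KLF9, KLF10 and KLF13 to one that binds the corepressor Sin3A. KLF4 is one of the reprogramming factors, and KLF2, KLF4 and KLF5 sustain naive pluripotency in mouse embryonic stem cells. Several members also act in epithelium, endothelium and early responses to growth factors.

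In H1, 6 of the 9 tested members were higher in EB and 0 were lower in limma's moderated test (Benjamini-Hochberg adjusted p under 0.05 over all tested genes). KLF3, KLF4, KLF5, KLF6, KLF10 and KLF12 rose, while KLF2, KLF7 and KLF13 did not pass. The called members make up 66.7% of those tested, against 57.7% of all tested genes called in either direction, 29.6% called higher and 28.1% called lower. The median log2 change of the 9 members was 0.57, against 0.017 for all tested genes. The members were chosen with earlier results of these data known. The 4 other tested KLF genes had a median of -0.025 in H1, with 1 higher and 1 lower. KLF5 would not have entered the test without its EB arrays, where it is high. For these reasons the counts and medians of the members are descriptions. With arrays centred on their medians the split of the members was 6 higher and 2 lower, KLF7 and KLF13 being the lower ones. With quantile normalization it was 6 higher and 1 lower. With the arrays labelled H9 EB left out of the fit, 6 members were called higher again and 0 lower.

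On the arrays labelled H9, 6 of the 9 members were higher in EB and 1 was lower, against 60.6% of all tested genes called in either direction, 31.6% higher and 29.0% lower. Their median log2 change was 0.66, against 0.013 for all tested genes. The 4 other tested KLF genes had a median of -0.58 there, with 0 higher and 3 lower. The split of the members was 5 higher and 2 lower with centred arrays, and 6 higher and 2 lower with quantile normalization. Called higher in both comparisons were 5 members, KLF3, KLF4, KLF5, KLF6 and KLF12. The share of all tested genes called higher in both was not computed, so this count is a description. KLF10 had opposite calls, KLF7 was called on the arrays labelled H9 and not in H1, and KLF2 and KLF13 were called in neither. RNA came from whole cultures, so fewer cells of a type and less RNA per cell cannot be told apart.

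**Figure D1:**
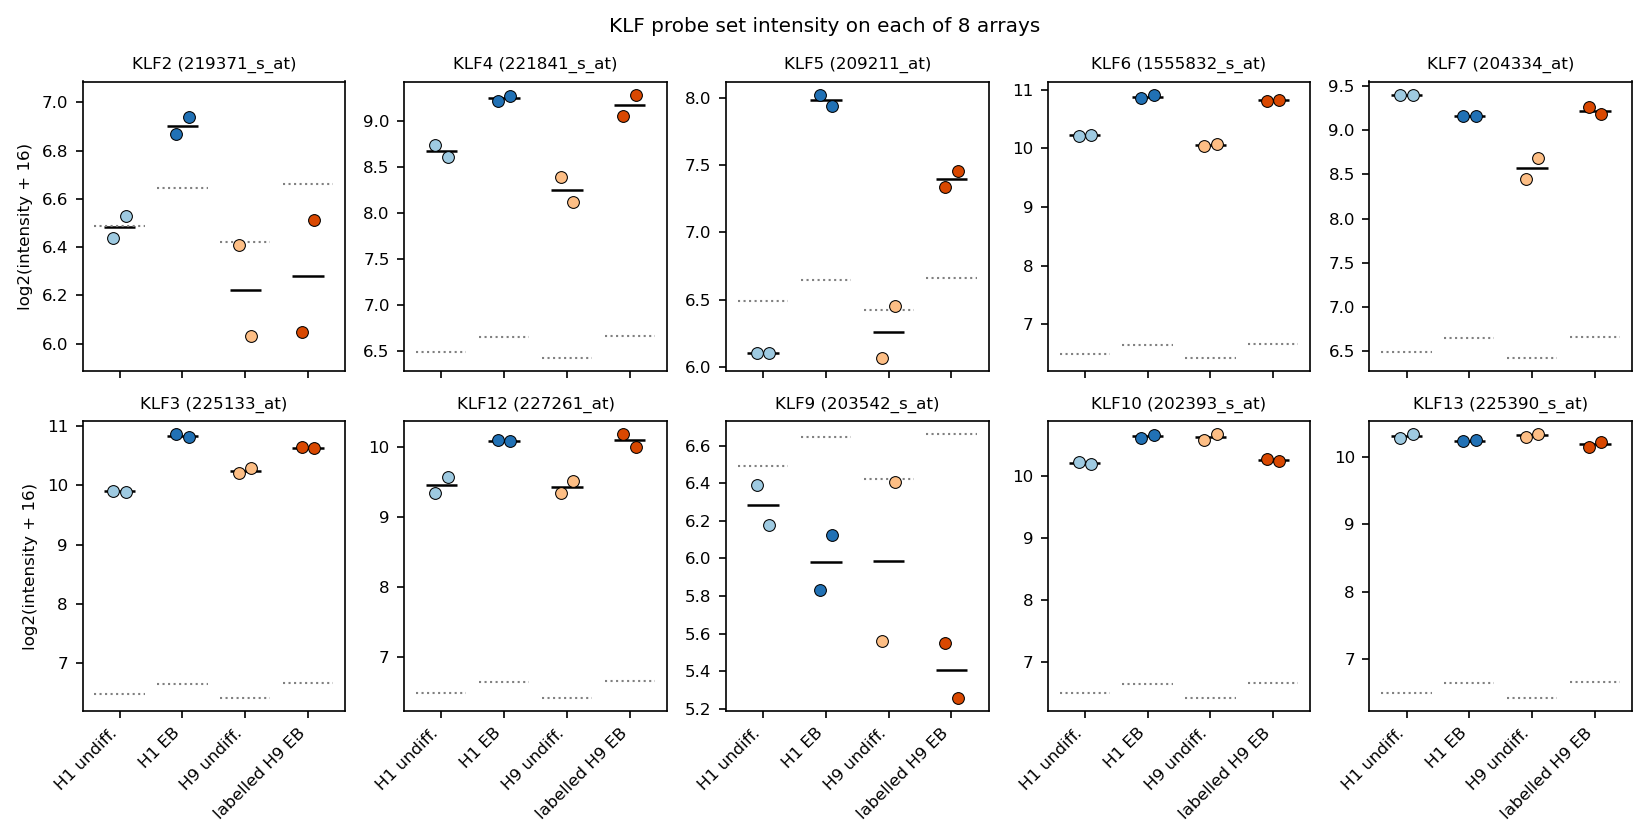
Intensity of the chosen probe set of each of the 10 KLF genes on the log2(intensity + 16) scale, with a point for each of the 8 arrays, a black bar at the mean of each group of 2, and a dotted line at the mean array median of the group. Vertical scales differ between panels. KLF4, KLF5, KLF6, KLF3 and KLF12 are higher on EB arrays of both labels, KLF7 is lowest in undifferentiated H9, and KLF9 stays below the dotted line.

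The 250 bases upstream of annotated starts are shown for the members that rose under both labels and have few annotated starts, KLF4, KLF6 and KLF5 (2 starts), and for KLF2 and KLF13, which were not called. Sequences are from RefSeq, GRCh38.p14, 5′ to 3′ on the strand of the gene. Capitals mark GGGCGG, a core of the GC box, and CACCC, the core of the other site that KLF proteins bind, each on either strand. The 2 motifs can overlap, as in KLF13. The windows are chr9:107489770-107490019 (minus strand) for KLF4, chr10:3785210-3785459 (minus) for KLF6, chr13:73054726-73054975 and chr13:73058755-73059004 (plus) for KLF5, chr19:16324576-16324825 (plus) for KLF2 and chr15:31326585-31326834 (plus) for KLF13.
KLF4: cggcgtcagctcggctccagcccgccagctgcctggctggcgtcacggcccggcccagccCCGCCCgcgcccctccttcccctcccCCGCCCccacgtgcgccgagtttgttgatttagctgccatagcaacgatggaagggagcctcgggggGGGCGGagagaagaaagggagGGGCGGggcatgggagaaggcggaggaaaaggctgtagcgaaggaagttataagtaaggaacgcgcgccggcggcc
KLF6: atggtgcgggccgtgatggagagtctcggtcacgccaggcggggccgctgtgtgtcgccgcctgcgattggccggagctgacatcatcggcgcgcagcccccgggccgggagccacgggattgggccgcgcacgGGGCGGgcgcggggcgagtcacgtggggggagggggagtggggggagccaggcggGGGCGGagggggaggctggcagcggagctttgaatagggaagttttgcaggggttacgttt
KLF5, upstream start: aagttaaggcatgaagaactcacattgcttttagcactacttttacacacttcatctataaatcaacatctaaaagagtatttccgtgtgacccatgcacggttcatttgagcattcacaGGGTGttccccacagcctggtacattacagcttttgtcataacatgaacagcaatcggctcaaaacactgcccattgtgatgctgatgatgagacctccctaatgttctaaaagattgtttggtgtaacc
KLF5, downstream start: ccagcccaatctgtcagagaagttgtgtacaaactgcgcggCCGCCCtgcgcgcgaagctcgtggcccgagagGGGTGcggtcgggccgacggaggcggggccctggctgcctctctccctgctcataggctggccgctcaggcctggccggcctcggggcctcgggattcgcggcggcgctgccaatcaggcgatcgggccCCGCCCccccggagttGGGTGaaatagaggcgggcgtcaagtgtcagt
KLF2: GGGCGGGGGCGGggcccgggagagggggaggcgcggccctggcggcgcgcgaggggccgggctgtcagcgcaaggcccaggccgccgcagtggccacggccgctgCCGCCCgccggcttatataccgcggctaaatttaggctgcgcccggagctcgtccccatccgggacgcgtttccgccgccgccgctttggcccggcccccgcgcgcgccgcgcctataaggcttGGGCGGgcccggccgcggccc
KLF13: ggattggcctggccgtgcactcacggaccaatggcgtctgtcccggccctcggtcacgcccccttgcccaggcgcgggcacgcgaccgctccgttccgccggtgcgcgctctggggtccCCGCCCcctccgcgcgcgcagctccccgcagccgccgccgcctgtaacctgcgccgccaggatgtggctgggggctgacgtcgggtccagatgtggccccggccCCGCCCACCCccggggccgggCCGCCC

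KLF4 and KLF2 each held 4 matches to GGGCGG, KLF13 held 3 and KLF6 held 2, and in KLF5 the downstream window held 2 and the upstream one 0. CACCC matched 2 times downstream and 1 time upstream in KLF5, 1 time in KLF13, and 0 times in KLF4, KLF6 and KLF2. Over the 15 windows of the 8 members in the table, 7 held GGGCGG and 7 held CACCC. Of 35116 windows of the same length, 42.6% held GGGCGG and 54.7% held CACCC. Windows of members that rose and of members that were not called both carry GGGCGG. A match describes the letters only, and binding was not measured.

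Among the activator subfamily, KLF5 had the largest EB difference by its brightest probe set. KLF5 is active in epithelial and trophoblast cells and in early embryos. Its probe set read 52.8 and 52.7 in undifferentiated H1, which is dim, and 244 and 229.5 in H1 EB. It read 51.0 and 71.8 in undifferentiated H9, with 1 of these above the array median, and 145.8 and 159.4 on the arrays labelled H9 EB. Every EB array was above every undifferentiated array, and H1 EB was above the arrays labelled H9 EB. The log2 difference was 1.88 ± 0.214 (SE; limma adjusted p = 2.12e-05) in H1 and 1.14 ± 0.214 (limma adjusted p = 0.000787) on the arrays labelled H9. With 1 undifferentiated array above its median, the probe set would not have passed the filter on dim genes without EB arrays. The filter thus set the direction of the H1 call and favoured a rise on the arrays labelled H9, and these p-values are descriptions. Because undifferentiated H1 was dim, the fold is a lower bound: the H1 EB mean of 236.6 was at least 3.2-fold above the array median of 73.8, the measured mean of undifferentiated H1 being 52.7. The difference between these EB effects, -0.74 ± 0.302, did not pass (limma adjusted p = 0.103). The second probe set of KLF5 rose by 1.91 (adjusted p = 0.00177 over all tested probe sets, limma) on the arrays labelled H9, and in H1 its difference was 0.66 (limma adjusted p = 0.177). The tested probe sets of the gene thus gave unlike sizes in H1. In undifferentiated H9 the second one was dim, at 47.9 and 8.24, against 123.2 and 140.8 on the arrays labelled H9 EB. Its size of 1.91 rests on these dim readings and cannot be ranked against the 1.14 of the brightest one.

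KLF4, a reprogramming factor that also acts in epithelial differentiation, read 409.9 and 372.5 in undifferentiated H1 and 578.7 and 600.3 in H1 EB. In undifferentiated H9 it read 317.8 and 261.2, and on the arrays labelled H9 EB 515.8 and 606.7. Both EB groups lay above both undifferentiated groups, and the EB groups overlapped each other. Its log2 difference was 0.57 ± 0.128 (SE; limma adjusted p = 0.00259) in H1, a 1.49-fold rise on the log2(intensity + 16) scale. On the arrays labelled H9 it was 0.92 ± 0.128 (limma adjusted p = 8.63e-05). The difference of 0.35 ± 0.181 between the EB effects did not pass (limma adjusted p = 0.197). A further KLF4 probe set was below the median on all 8 arrays; averaged with it, both calls were lost, with -0.011 in H1 (limma adjusted p = 0.976) and 0.67 on the arrays labelled H9 (adjusted p = 0.0572).

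KLF6, a widely expressed factor induced by growth factors and injury, read 1168 and 1190 in undifferentiated H1 and 1837 and 1920 in H1 EB. The readings were 1034 and 1060 in undifferentiated H9 and 1790 and 1807 on the arrays labelled H9 EB. EB and undifferentiated arrays were far apart in both lines relative to the spread within a group. KLF6 rose by 0.66 ± 0.0645 (SE; limma adjusted p = 6.30e-06) in H1, against 0.77 ± 0.0645 (limma adjusted p = 1.72e-06) on the arrays labelled H9. It had the most support among its own probe sets. Of 3 other tested KLF6 probe sets, 2 rose in H1 and 3 on the arrays labelled H9, none opposite. Their differences ran from 0.58 to 0.83 in H1, with 0.96 to 1.01 on the arrays labelled H9.

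KLF7, a factor of neuronal and progenitor cells, was lowest in undifferentiated H9. It read 658.0 and 660.4 in undifferentiated H1 and 558.0 and 555.6 in H1 EB. Undifferentiated H9 gave 334.1 and 394.9, and the arrays labelled H9 EB 598.3 and 564.9. From lowest to highest, the order was undifferentiated H9, H1 EB, the arrays labelled H9 EB and undifferentiated H1, with no overlap between neighbours. The EB value in H1 was -0.24 ± 0.105 and did not pass (limma adjusted p = 0.0743), although its arrays did not overlap. It passed without undifferentiated H9 replicate 1 (adjusted p = 0.0443) or replicate 2 (adjusted p = 0.0459), and with arrays centred on their medians (-0.39, adjusted p = 0.00647) or quantile normalized (-0.35, adjusted p = 0.012), in a limma range over 19 alternatives from 0.00647 to 0.285. On the arrays labelled H9 KLF7 rose by 0.66 ± 0.105 (limma adjusted p = 0.000254). The EB effects differed by 0.89 ± 0.149 (limma adjusted p = 0.00212). Of 3 other tested KLF7 probe sets, 1 fell in H1 (-0.63, limma adjusted p = 0.0113) and 0 were called on the arrays labelled H9, where they read 0.078 to 0.39.

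KLF2, known for its part in blood vessel lining and T cells, was near the array median throughout. It read 70.7 and 76.2 in undifferentiated H1, 100.8 and 106.6 in H1 EB, 68.95 and 49.5 in undifferentiated H9, and 50.1 and 75.3 on the arrays labelled H9 EB. Both H1 EB arrays were above every other array and above their own medians, and both arrays labelled H9 EB were dim. The difference in H1, 0.42 ± 0.271, did not pass (limma adjusted p = 0.209), nor did 0.059 ± 0.271 on the arrays labelled H9 (limma adjusted p = 0.865). Of 9 endothelial markers, PECAM1 and TEK were above the median on all 8 arrays, VWF on 7 and ERG on 3, with a summed signal of 1117 to 1191 in undifferentiated H1, 1081 to 1237 in H1 EB, 754.4 to 858.9 in undifferentiated H9 and 868 to 895.5 on the arrays labelled H9 EB. CDH5, TIE1, ESAM, CLDN5 and EMCN were below the median on all 8 arrays.

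**Figure D2:**
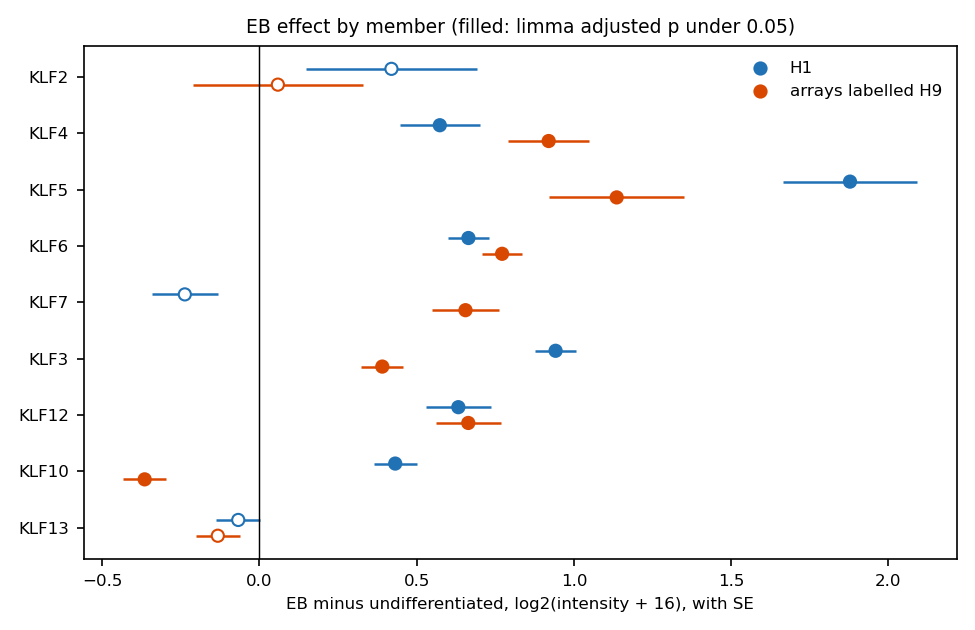
EB minus undifferentiated difference of the 9 tested members on the log2(intensity + 16) scale, with the standard error of the limma fit, for H1 (blue) and the arrays labelled H9 (orange). Filled points passed an adjusted p under 0.05. KLF5 lies farthest to the right in H1 at 1.88, while KLF10 lies at 0.43 in H1 and at -0.37 on the arrays labelled H9.

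Of the CtBP-binding subfamily, the members followed here, KLF3 and KLF12, both rose by their brightest probe sets. KLF8, given below, was not called by its brightest one. KLF3, a repressor with roles in fat, muscle and red blood cells, read 938.8 and 933.7 in undifferentiated H1 and 1840 and 1787 in H1 EB. It gave 1165 and 1230 in undifferentiated H9 and 1586 and 1562 on the arrays labelled H9 EB. The groups did not overlap, and their order was undifferentiated H1, undifferentiated H9, the arrays labelled H9 EB and H1 EB. KLF3 rose by 0.94 ± 0.0665 (SE; limma adjusted p = 5.34e-07) in H1, a 1.92-fold rise, and by 0.39 ± 0.0665 (limma adjusted p = 0.000389) on the arrays labelled H9, which is less by 0.55 ± 0.094 (limma adjusted p = 0.00239). The call on the arrays labelled H9 was lost with arrays centred on their medians (0.15, adjusted p = 0.0766). Its other probe sets were not called higher, although their H1 differences were all positive. Of 3 other tested KLF3 probe sets 0 were called in H1, where they read 0.10 to 0.39, and 1 fell on the arrays labelled H9 (-0.48, limma adjusted p = 0.0146). With the mean of its tested probe sets the H1 difference was 0.39 (limma adjusted p = 0.0153), and -0.0028 (limma adjusted p = 0.985) on the arrays labelled H9.

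KLF12, first known as a repressor of the AP-2alpha gene TFAP2A, rose under both labels. It read 633.7 and 744.4 in undifferentiated H1, 1083 and 1064 in H1 EB, 631.9 and 714.6 in undifferentiated H9, and 1143 and 1010 on the arrays labelled H9 EB. All EB arrays were above all undifferentiated arrays, and within each state the lines overlapped. The rise was 0.63 ± 0.104 (SE; limma adjusted p = 0.000331) in H1 and 0.66 ± 0.104 (limma adjusted p = 0.000212) on the arrays labelled H9, a difference of 0.032 that did not pass and has a standard error of 0.147 (limma adjusted p = 0.903). Of 2 other tested KLF12 probe sets, 1 rose under both labels, by 0.74 in H1, against 0.56 on the arrays labelled H9. The other gave 0.35 in H1 and -0.20 on the arrays labelled H9 and was not called. A further 5 KLF12 probe sets were too dim to test, and averaged over all its probe sets KLF12 lost both calls, with 0.036 in H1 (limma adjusted p = 0.874) and 0.31 on the arrays labelled H9 (adjusted p = 0.138).

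The Sin3A-binding members did not move together. KLF10, an early response gene of TGF-beta also called TIEG1, is read by a single probe set. It read 1177 and 1147 in undifferentiated H1, 1545 and 1601 in H1 EB, 1506 and 1608 in undifferentiated H9, and 1218 and 1192 on the arrays labelled H9 EB. The high groups were thus H1 EB and undifferentiated H9, which overlapped, and the arrays labelled H9 EB lay just above undifferentiated H1. KLF10 rose by 0.43 ± 0.068 (SE; limma adjusted p = 0.000241) in H1 and fell by 0.37 ± 0.068 (limma adjusted p = 0.000736) on the arrays labelled H9. The EB effects differed by -0.80 ± 0.0962 (limma adjusted p = 0.000358). Both calls and their difference held in each alternative that was run, with values of 0.28 to 0.46 in H1 and -0.60 to -0.32 on the arrays labelled H9.

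KLF13, which regulates late T cell genes and heart genes, read 1234 and 1280 in undifferentiated H1, 1192 and 1205 in H1 EB, 1249 and 1281 in undifferentiated H9, and 1119 and 1187 on the arrays labelled H9 EB. EB arrays were the lower ones under both labels. The differences of -0.068 ± 0.0693 in H1 (limma adjusted p = 0.432) and -0.13 ± 0.0693 on the arrays labelled H9 (limma adjusted p = 0.121) did not pass. With arrays centred on their medians, where the median change of all tested genes went from 0.017 to -0.14 in H1 (arrays labelled H9, 0.013 to -0.23), both passed (-0.22, adjusted p = 0.0224, and -0.37, adjusted p = 0.000871). With quantile normalization the value on the arrays labelled H9 passed as well (-0.18, limma adjusted p = 0.0437). KLF9, a factor induced by glucocorticoid and thyroid hormone, read 22.3 to 68.9 over the 8 arrays. None of its 5 probe sets was above the median on any array, and no change was tested.

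**Figure D3:**
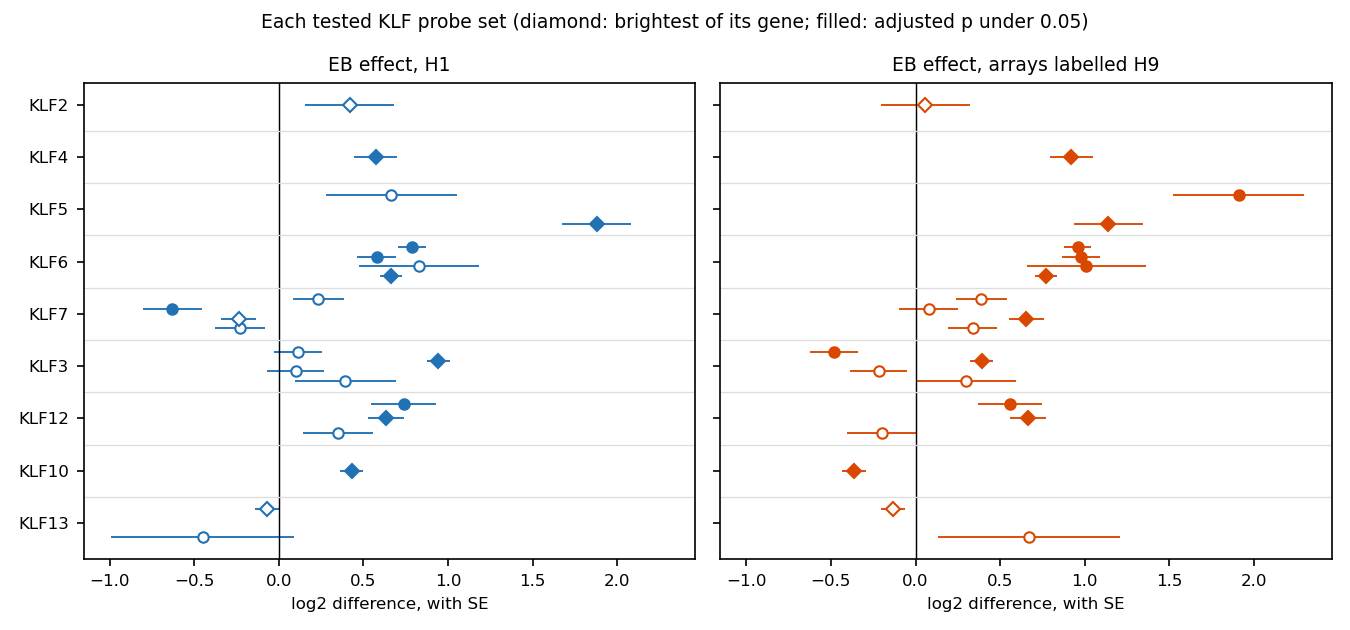
EB minus undifferentiated difference, with its standard error, of each KLF probe set above the array median on at least 2 arrays, in H1 (left) and on the arrays labelled H9 (right), in log2(intensity + 16). Diamonds are the brightest probe set of each gene, circles its others, and filled symbols have an adjusted p under 0.05 over all tested probe sets. The 4 KLF6 probe sets lie together, from 0.58 to 0.83 in H1, while the KLF3 diamond at 0.94 stands apart from its circles.

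Undifferentiated H9 and undifferentiated H1, a contrast of arrays other than EB, differed for 4 of the 9 members, against 26.2% of all tested genes called in either direction, 13.7% higher and 12.5% lower. KLF3 (0.35 ± 0.0665, limma adjusted p = 0.00333) and KLF10 (0.42 ± 0.068, limma adjusted p = 0.00136) were higher in H9. KLF7 was lower in H9 by the largest margin (-0.83 ± 0.105, limma adjusted p = 0.00026), a 1.78-fold lower level on the log2(intensity + 16) scale. Of its 3 other tested probe sets 1 was also called lower (-0.54, limma adjusted p = 0.0247). KLF4 was lower in H9 as well (-0.42 ± 0.128, limma adjusted p = 0.0333), but lost its call in 11 of 19 alternatives, with an adjusted p of 0.0252 to 0.195. Centred arrays and quantile normalization each gave 2 members higher and 1 lower in H9, without KLF4. With the arrays labelled H9 EB left out of the fit, 2 members were higher and 2 lower. Leaving out 1 array ended the KLF4 call for both undifferentiated H1 arrays (adjusted p = 0.152 without replicate 1 and 0.0625 without replicate 2), both H1 EB arrays (0.0505 and 0.0508) and undifferentiated H9 replicate 2 (0.175), by limma. The KLF3 line difference was 0.051 with the mean of its tested or of all its probe sets (limma adjusted p = 0.790 and 0.807). The line values of KLF2 (-0.26), KLF5 (0.16), KLF6 (-0.17), KLF12 (-0.031) and KLF13 (0.0094) did not pass. The second KLF5 probe set, dim in undifferentiated H9, was called lower there (-1.3, limma adjusted p = 0.0372 over tested probe sets), opposite in sign to the brightest one.

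The EB effect differed between the labels for 3 of the 9 members, against 22.7% of all tested genes called in either direction, 11.5% higher and 11.2% lower. These were KLF7, KLF3 and KLF10, the members with the line differences that held in most alternatives. The difference of the EB effects uses the same undifferentiated arrays as the line contrast, with opposite sign, so these contrasts are not independent. KLF7 means were 365 (undifferentiated H9) and 582 (labelled H9 EB), against 659 and 557 for H1. KLF3 means were 1197 and 1574, against 936 and 1813, and KLF10 means were 1557 and 1205, against 1162 and 1573. On the arrays labelled H9 EB, CRYZ and KLF3 lay between undifferentiated H9 and H1 EB, KLF7 lay just above H1 EB, and KLF10 lay away from H1 EB, near undifferentiated H1. The part of H1-type signal in these differences was not tested.

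The remaining KLF genes and the related SP factors give the setting. The count of each list here and below stands against all tested genes, of which 29.6% were called higher and 28.1% lower in H1. On the arrays labelled H9 these shares were 31.6% and 29.0%. A difference between a list and these shares was not tested. Of 7 other KLF genes on the array, 4 were tested; 1 rose and 1 fell in H1, and 3 fell on the arrays labelled H9. KLF11, a close relative of KLF10 and like it a TGF-beta response gene, also had opposite calls. It read 324.4 and 299.6 in undifferentiated H1, 489.9 and 527.2 in H1 EB, 917.2 and 800.9 in undifferentiated H9, and 605.4 and 707.9 on the arrays labelled H9 EB. KLF11 rose by 0.68 ± 0.114 (limma adjusted p = 0.000392) in H1, fell by 0.38 ± 0.114 (limma adjusted p = 0.0136) on the arrays labelled H9, and was higher in undifferentiated H9 by 1.41 ± 0.114 (limma adjusted p = 1.11e-05). KLF16 fell in both comparisons (-0.70 and -0.78), and KLF15 fell on the arrays labelled H9 (-0.999) and read -0.37 in H1 (limma adjusted p = 0.0513). KLF8, a CtBP-binding relative of KLF3 and KLF12, read 0.32 and 0.059 and was not called. KLF1, KLF14 and KLF17 were below the median on all 8 arrays.

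Of 7 tested SP genes 4 rose and 1 fell in H1 (57.1% and 14.3%, against 29.6% and 28.1% of all tested genes). On the arrays labelled H9, 3 rose and 2 fell (42.9% and 28.6%, against 31.6% and 29.0%). SP5, a WNT target, rose by 2.19 ± 0.13 in H1, against 3.05 ± 0.13 on the arrays labelled H9, and SP8, a factor of limb and forebrain, by 2.10 ± 0.102 and 1.09 ± 0.102. SP6 rose by 1.00 and 1.11, SP4 fell by 0.58 and 0.88, and SP3 changed by 0.14 and -0.16, called under both labels. SP1, the factor that shares GC boxes with the KLF proteins, read -0.13 and -0.0049 and was not called with its brightest probe set; SP2 was not called either.

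Genes that act with KLF proteins were read from lists chosen with earlier results of these data known. Of 9 tested cofactors 2 rose and 3 fell in H1 (22.2% and 33.3%, against 29.6% and 28.1% of all tested genes). On the arrays labelled H9, 3 rose and 4 fell (33.3% and 44.4%, against 31.6% and 29.0%). KAT2B, an acetyltransferase gene, lay below the array median in both undifferentiated groups and rose at least 4.3-fold in H1 and at least 4.64-fold on the arrays labelled H9. It is counted among the rises. It passed the filter on dim genes through EB arrays alone, so the direction of its calls was set by the filter. The corepressor genes CTBP2 (-0.48 ± 0.05 in H1 and -0.51 ± 0.05 on the arrays labelled H9) and SIN3A (-0.36 ± 0.068 and -0.42 ± 0.068) fell. Their paralogues did not: CTBP1 rose by 0.21 and 0.20 (limma adjusted p = 0.00737 and 0.00817), and SIN3B read 0.15 in H1 (limma adjusted p = 0.330) and rose by 0.49 on the arrays labelled H9 (limma adjusted p = 0.00593). CTBP2 is a partner of KLF3 and KLF12, which rose, and SIN3A of KLF10, which had opposite calls. Of 7 tested genes for KLF protein turnover, mostly ubiquitin ligases, 2 rose and 1 fell in H1, and 1 rose and 1 fell on the arrays labelled H9. WWP1, a ligase for KLF2 and KLF5, fell by 0.19 and 0.22; FBXW7, a ligase component for KLF5, rose by 0.26 in H1; BTRC rose by 0.46 and 0.43.

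Of 12 signalling genes upstream of KLF factors, 4 rose and 2 fell in H1, and 6 rose and 2 fell on the arrays labelled H9. LIFR and IL6ST, which encode the receptor chains for LIF, the cytokine upstream of KLF4 in mouse embryonic stem cells, rose by 2.21 ± 0.0894 and 2.65 ± 0.0722 in H1, against 2.37 and 2.16 on the arrays labelled H9. STAT3, the transcription factor gene below them, fell by 0.85 ± 0.067 and 0.66 ± 0.067.

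Of 11 tested genes reported as KLF targets, 8 rose and 1 fell in H1, and 8 rose and 2 fell on the arrays labelled H9. Of all tested genes, 29.6% were called higher and 28.1% lower in H1, and 31.6% and 29.0% on the arrays labelled H9. S1PR1 and THBD are among the rises under both labels. They passed the filter on dim genes through EB arrays alone, so the direction of their calls was set by the filter. TFAP2A, a reported target of repression by KLF12, rose by 3.21 ± 0.1 in H1, and on the arrays labelled H9 at least 34-fold, being dim in undifferentiated H9. KLF12 rose in the same samples. ODC1, the ornithine decarboxylase gene reported to be repressed by KLF4, rose 2.83-fold and 2.86-fold, and NANOG fell by 0.98 and 0.82. Targets of activation and repression stand in 1 list, so its counts have no single direction.

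KLF2, KLF4, KLF6 and KLF10 are themselves known as early response genes. In the immediate early list, 2 of 12 tested genes rose and 6 fell in H1, and 2 rose and 5 fell on the arrays labelled H9, with a median of -0.37 and -0.094. FOS, among the falls in H1, passed the filter through undifferentiated H1 arrays alone, so the direction of its call was set by the filter. IER2 (-0.74 and -0.53), ATF3 (-1.03 and -0.71) and IER3 (-0.59 and -1.05) fell under both labels, and JUN rose (0.35 and 1.01; chosen after its values were seen). Of the KLF early response genes, KLF4 and KLF6 rose under both labels, KLF10 rose in H1 and fell on the arrays labelled H9, and KLF2 was not called. In the naive pluripotency list, where KLF4 and KLF5 have their best known role, 1 of 7 tested genes rose and 5 fell in H1, and 1 rose and 2 fell on the arrays labelled H9. TBX3, which also acts in mesoderm and amnion, rose by 4.63 in H1 and at least 25.7-fold on the arrays labelled H9, where it was dim before. NR5A2 fell by 2.04 and 0.86, and SALL4 by 1.15 in H1 with -0.10 on the arrays labelled H9 (limma adjusted p = 0.236).

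**Figure D4:**
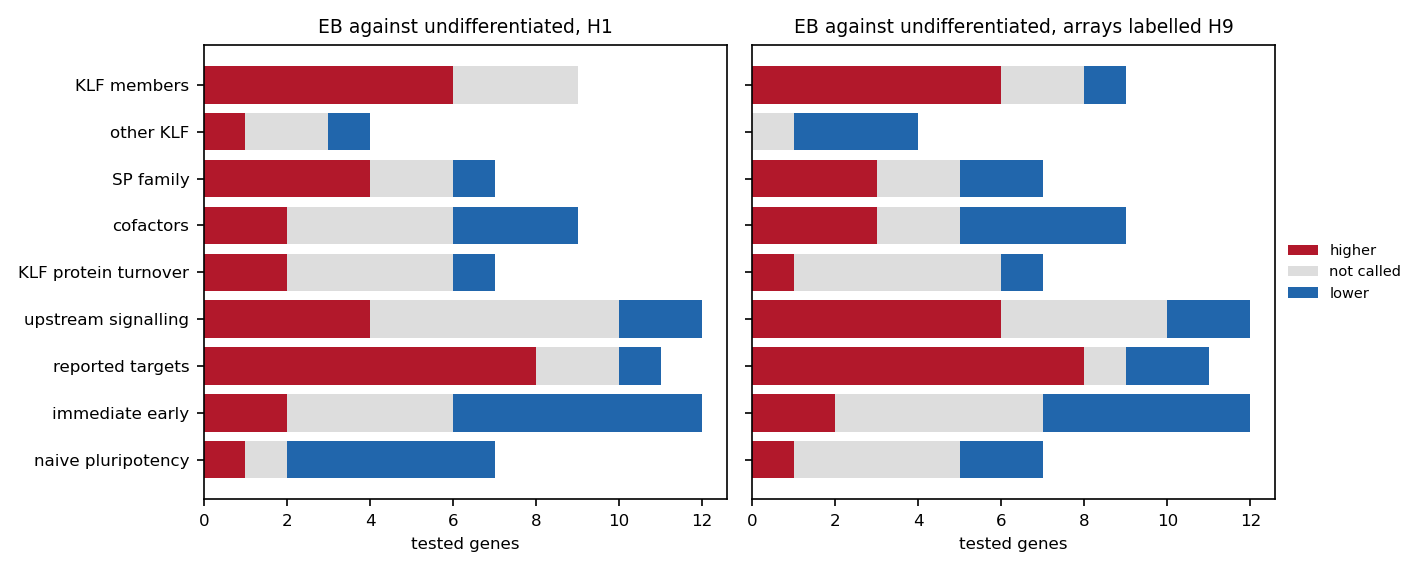
Number of tested genes called higher (red), lower (blue) or not called (grey) in EB against undifferentiated cells, for the KLF members and 8 lists of related genes, in H1 (left) and on the arrays labelled H9 (right). The bar of the KLF members holds 6 higher calls on each side, and that of the immediate early genes 6 lower calls in H1 and 5 on the arrays labelled H9.

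Marker lists were read on the same arrays. Of 10 tested markers of differentiating cells 9 rose and 0 fell under both labels, AFP, a yolk sac and liver gene, by 5.90 and 5.08, and GATA6, an endoderm factor, by 4.84 and 4.17. PAX6, a neural and eye factor, rose at least 39.8-fold in H1, where it was dim before, and by 3.56 on the arrays labelled H9. Of 9 pluripotent markers 8 fell and 0 rose in H1, and 4 fell and 0 rose on the arrays labelled H9; the DNA methyltransferase gene DNMT3B fell by 0.67 in H1 and read 0.033 on the arrays labelled H9. Of 6 tested fibroblast-type markers 4 rose and 1 fell under both labels, the collagen-binding gene LUM by 3.19 and 5.83 and the collagen gene COL1A1 by 0.90 and 1.37 upwards, and THY1 by 2.16 and 2.08 downwards, and the summed signal of all 7 was 19340 to 19400 in undifferentiated H1, 32210 to 33260 in H1 EB, 14050 to 14120 in undifferentiated H9 and 32580 to 34590 on the arrays labelled H9 EB. Endothelial markers gave 1 rise and 0 falls of 4 tested in H1, and 2 rises and 1 fall on the arrays labelled H9. VWF, a clotting factor gene, rose by 1.01 and 1.40. ERG read -0.60 in H1, uncalled, and rose at least 1.12-fold on the arrays labelled H9, TEK read -0.13 and then fell by 0.53, and PECAM1 read -0.26 and -0.16, uncalled. Of the blood markers 3 were tested. HBE1 and LYZ passed the filter on dim genes through EB arrays alone, so the direction of their calls was set by the filter. HBE1, an embryonic globin gene, was at least 2.76-fold higher in H1 EB and at least 1.07-fold higher on the arrays labelled H9 EB, where 1 of 2 arrays was above its median. LYZ, the lysozyme gene, was at least 2.03-fold higher in H1 EB and below the median on both arrays labelled H9 EB, and CD34 read 0.26 and -0.32, uncalled. The blood list had a summed signal of 7 genes of 150.1 to 190.0 in undifferentiated H1, 546.2 to 560.7 in H1 EB, 164.7 to 172.5 in undifferentiated H9 and 236.9 to 331.8 on the arrays labelled H9 EB. The part of other cell types in the KLF values was not tested.

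The genes most like a member were found for the 3 tested members with the widest range over the 8 arrays, by the root mean square difference of log2 values after centring each gene on its own mean. The nearest to KLF5 were FRK, a tyrosine kinase gene (0.092), LOC339975 (0.098) and TGFBR3, which encodes a TGF-beta co-receptor (0.11), where the median over 14055 genes was 0.82. FRK read 34.9 and 41.1 in undifferentiated H1, 190.9 and 205.3 in H1 EB, 39.7 and 49.4 in undifferentiated H9, and 122.9 and 130.6 on the arrays labelled H9 EB, the same order of levels as for KLF5. KLF4 was nearest to LRP10 (0.073), CLCN4, a chloride transporter gene (0.074), and CRISPLD1 (0.089), with a median of 0.49. KLF3 was nearest to HSD17B11, a steroid and lipid enzyme gene (0.048), TMEM123 (0.059) and ARGLU1 (0.061), with a median of 0.44. With 4 groups, many genes that follow the state and line come close by this measure.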

How the data were processed

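RNA of 8 samples was hybridised to 8 one-colour arrays. The deposited values are linear-scale intensities. MAS5 is the tool the authors used, per the submitters' processing notes, and its version is not given in the sources used here. Every array had a trimmed mean of 500.1 (2% off each end), so all had been scaled to one target before deposit, which forces the average change towards 0. Of 54675 probe sets deposited 62 are controls, and the platform annotation gave 1 symbol to 41091, several to 1801 and none used here to 11721. Several chosen KLF probe sets have the suffix _s_at, a type that can read more than 1 transcript.

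The log2 of each deposited intensity plus 16 was analysed, a scale that understates changes of dim genes. Group means of all 8 arrays were estimated together with limma 3.58.1 (R 4.3.3; lmFit, eBayes with trend and robust settings, 4 residual degrees of freedom), adjusted over 14056 genes by Benjamini-Hochberg, and tested on simulated data. "At least" folds divide the mean of the bright group by that of the dim one, with dim readings raised to their array's median. Probe sets were also tested one by one over 25802 of them. The number of arrays limits the precision. Members and lists were chosen with earlier results of these data known. Named genes were all members, the tested KLF and SP genes, the 3 genes of each other list with the smallest p in H1, and the nearest genes in pattern. Others were named with values seen: CRYZ, JUN, FOS, S1PR1, THBD, the paralogues CTBP1 and SIN3B, TEK, the dim endothelial markers and the genes of the closing observations. Alternatives were quantile normalization, centred arrays, added values of 1 and 64, no filter, means of probe sets, plain eBayes, a replicate block, only the groups compared, no arrays labelled H9 EB, and each array left out; the mean of tested probe sets was chosen after seeing the data.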

Additional observations from a re-analysis of the deposited data

Results flagged for a closer look

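The EB effect differed between the arrays labelled H9 and H1, by limma's test of the difference itself, for KLF7 (0.89, adjusted p = 0.00212), KLF10 (-0.80, adjusted p = 0.000358) and KLF3 (-0.55, adjusted p = 0.00239). KLF10 rose in H1 and fell on the arrays labelled H9, KLF7 was called on the arrays labelled H9 alone, and KLF3 rose under both labels. All 3 rest on the arrays labelled H9 EB, and the comparison cannot be made without them. Averaged over every probe set of the gene, the KLF7 difference was 0.48 (adjusted p = 0.0943) and the KLF3 difference -0.39 (adjusted p = 0.150), while KLF10 has a single probe set. No group had enough arrays for a test of single outlying arrays.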

How the results depend on the processing

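The number of members called stayed within 1.5 times its main value in all alternatives except the mean of all probe sets, which includes dim ones: there it was 4 in place of 7 on the arrays labelled H9, 2 in place of 4 between undifferentiated lines, and 1 in place of 3 for the difference of the EB effects. In H1 the same alternative gave 4 in place of 6, at the limit of 1.5 times, with 47.5% of all tested genes called. Leaving out 1 array gave 6 to 7 members in H1, 7 on the arrays labelled H9, 3 to 4 between lines and 3 for the difference. Values whose sign turned were all uncalled in the alternative. With the mean of all probe sets they were KLF2 (-0.13) and KLF4 (-0.011) in H1, KLF13 (0.27) and KLF3 (-0.0028) on the arrays labelled H9, KLF13 (-0.37) and KLF5 (-0.57) between lines, and KLF13 (0.36), KLF2 (0.69) and KLF5 (0.25) for the difference. With the mean of tested probe sets they were KLF13 (0.27) and KLF3 (-0.0028) on the arrays labelled H9, KLF12 (0.093), KLF13 (-0.40) and KLF5 (-0.57) between lines, and KLF12 (-0.23), KLF13 (0.53) and KLF5 (0.25) for the difference. KLF2 on the arrays labelled H9 turned with quantile normalization (-0.16) and with centred arrays (-0.18), as did KLF12 with centred arrays between lines (0.038) and for the difference (-0.053). Without 1 array, the range was -0.17 to 0.29 for KLF2 on the arrays labelled H9, -0.14 to 0.083 for KLF12, -0.016 to 0.035 for KLF13 and -0.038 to 0.35 for KLF5 between lines, and -0.082 to 0.14 for KLF12 in the difference. The cause was not tested. Same-numbered arrays share a number only (correlation of their deviations -0.046 to 0.054 over 6 pairs of groups); with a replicate block the counts of members called were 6, 7, 4 and 3, as without it. Signal near the array median limits KLF2, KLF5 in undifferentiated cells, and KLF9.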

Other observations

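KLF3-AS1, a non-coding RNA gene beside KLF3, was looked at after its values were seen. Its brighter probe set rose by 1.42 (limma adjusted p = 0.000842 over tested probe sets) in H1 and by 0.79 (adjusted p = 0.0216) on the arrays labelled H9, and its second one by 0.86 (adjusted p = 0.0204) and 1.04 (adjusted p = 0.0072). The second one passed the filter on dim probe sets through EB arrays alone, so the direction of its calls was set by the filter. The brighter one entered the test mainly through EB arrays. The weaker probe set of KLF8 rose by 1.04 in H1 (limma adjusted p = 0.00172) and read 0.33 on the arrays labelled H9 (adjusted p = 0.195), where the brighter one was not called in either comparison. A second SP1 probe set fell by 0.68 in H1 (limma adjusted p = 5.01e-05) and by 0.30 on the arrays labelled H9 (adjusted p = 0.00835), unlike its brightest one.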
